A study of Mus musculus with 1483 samples.

Results

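Cells of the mouse primary visual cortex labelled by the enhancer eHGT_079h were compared with cells labelled by the enhancer eHGT_064h. The genotype label of each cell chose the members: 141 cells from 3 eHGT_079h mice and 185 cells from 4 eHGT_064h mice, together 326 of the 1483 cells and 7 of the 33 mice in the series. The series profiled single cells labelled by 11 enhancers. Per the labels, an adeno-associated virus carried an enhancer that drove the yellow fluorescent protein SYFP2, fluorescent cells from primary visual cortex (VISp) of C57Bl/6J mice were flow sorted, and full-length cDNA was made with the SMARTerv4 kit. Both groups share the strain, the tissue, the fluorescent protein, the sort and the kit, and differ in the enhancer. The labels do not state the age of the animals, the virus dose or the route of delivery. A cell enters only where the enhancer drove enough protein for the sort, so every value describes sorted cells and not the cortex.

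Parvalbumin (Pvalb) and somatostatin (Sst) mark the largest families of inhibitory neurons that derive from the medial ganglionic eminence. Pvalb basket cells fire fast, contact the soma of their targets and often carry a perineuronal net, a coat of matrix proteins. Sst cells, many of them Martinotti cells, contact distal dendrites and include subtypes marked by Hpse (heparanase, which cleaves heparan sulfate) or Calb2 (calretinin, a calcium-binding protein). Spp1 encodes osteopontin, a secreted matrix protein. In the mouse assembly GRCm38.p6 (mm10), RefSeq places Pvalb at chr15:78191112-78206400, Sst at chr16:23889573-23891342, Hpse at chr5:100679484-100719716 and Spp1 at chr5:104435111-104441053. An enhancer is a short regulatory sequence, and in a virus it can restrict a transgene to cells that have the matching transcription factors.

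Each cell was placed by its own CPM, the reads of a gene scaled to the same total in every cell. A Pvalb cell had Pvalb at 300 CPM or more and Sst below 300, an Sst cell had the opposite, a double cell had both genes at 300 CPM or more, and a neither cell had neither. The thresholds fell in a sparse range for Sst and less so for Pvalb. Around 300 CPM, the nearest eHGT_079h cells had 279.6 and 307 CPM of Pvalb and 217 and 342 CPM of Sst. The nearest eHGT_064h cells had 299 and 313 CPM of Pvalb and 149 and 306 CPM of Sst. Gad1, the enzyme that makes GABA, reached 10 CPM in 140 of 141 eHGT_079h cells and in 184 of 185 eHGT_064h cells, so nearly every cell of both groups carried this mark of inhibitory neurons.

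The reads per mouse, inferred from the CPM values, summed to between 28808230 and 33361567 for eHGT_079h and between 21830323 and 26844232 for eHGT_064h. The median cell had 670110 reads and 9935 detected genes for eHGT_079h, against 523857 reads and 9465 genes for eHGT_064h. The 4 library prefixes of eHGT_079h and the 6 of eHGT_064h had none in common, so prefix and enhancer cannot be told apart. The letter that opens a prefix (G or J) occurs in both groups, with 2 G mice and 1 J mouse for eHGT_079h and 2 of each for eHGT_064h. Summed markers of other cells were 18.3 to 32.6 CPM for oligodendrocyte lineage in eHGT_079h mice and 20.03 to 447 CPM in eHGT_064h mice. Glutamatergic markers summed to 1.12 to 59.0 CPM in eHGT_079h mice and 1.68 to 56.4 CPM in eHGT_064h mice. Endothelial and mural markers summed to 1114 to 1183 CPM in eHGT_079h mice and 1052 to 1282 CPM in eHGT_064h mice. Astrocyte markers summed to 88.5 to 191 CPM in eHGT_079h mice and 69.2 to 149 CPM in eHGT_064h mice. In each of these last lists, 1 of 6 markers averaged 10 CPM or more in each group.

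The eHGT_079h sort was mostly Pvalb cells, and the eHGT_064h sort held Pvalb and Sst cells in nearly equal numbers. Pvalb cells made up 78.7%, 58.7% and 56.3% of the cells of the 3 eHGT_079h mice, against 34.04%, 46.5%, 40.4% and 43.8% in the 4 eHGT_064h mice. The groups did not overlap, with means of 64.6% ± 12.3 (SD, n = 3) in eHGT_079h mice and 41.2% ± 5.37 (SD, n = 4) in eHGT_064h mice. The difference was 23.4 percentage points, with a 2-sided exact permutation p of 0.0286, the smallest that 3 mice against 4 can give, and 0.0571 after Benjamini-Hochberg adjustment over the 4 classes. Sst cells were 8.51%, 19.6% and 10.4% of the cells in eHGT_079h mice, against 51.1%, 46.5%, 46.8% and 52.1% in eHGT_064h mice. This was the largest gap among the 4 classes, at -36.3 percentage points, with every eHGT_079h mouse below every eHGT_064h mouse. The exact permutation p was again 0.0286, and 0.0571 adjusted. With 2 of the 4 classes at the smallest p, the adjustment could go no lower.

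Both differences kept their direction within each prefix letter. Among G mice, the Pvalb share differed by 28.4 points and the Sst share by -34.7 points, eHGT_079h minus eHGT_064h. Among J mice the differences were 14.2 points for Pvalb and -39.0 points for Sst, with 1 eHGT_079h mouse. Among the 11 enhancers, eHGT_079h ranked 4 and eHGT_064h ranked 5 for the share of Pvalb cells, while for Sst cells eHGT_079h ranked 5 and eHGT_064h ranked 2.

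**Figure D1:**
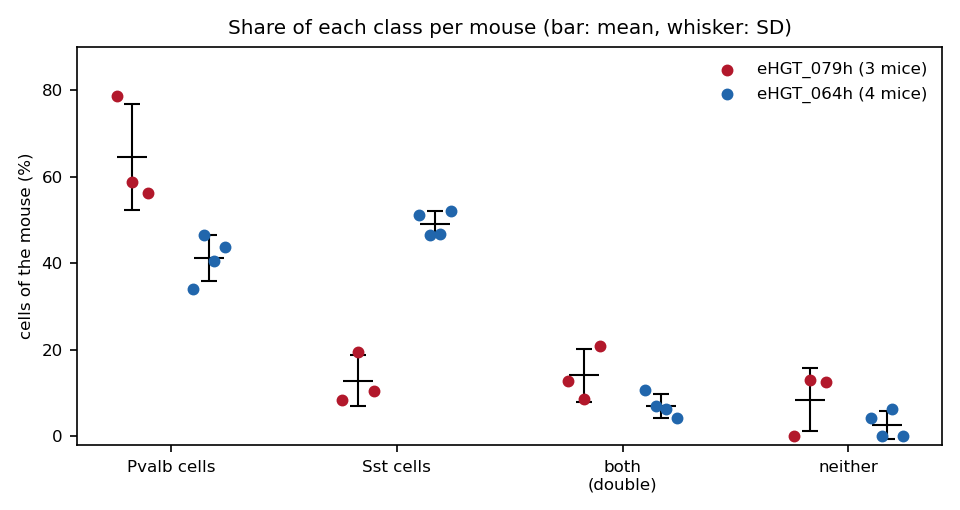
Share of sorted cells in each class (y axis, percent), with 1 point per mouse and the mean and SD as a bar, for eHGT_079h (3 mice) left of eHGT_064h (4 mice). The Sst shares of 8.51% to 19.6% in eHGT_079h mice lie below the 46.5% to 52.1% of eHGT_064h mice.

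Double cells, with both genes at 300 CPM or more, were 12.8%, 8.70% and 20.8% of the cells in eHGT_079h mice and 10.6%, 6.98%, 6.38% and 4.17% in eHGT_064h mice. These ranges overlap, and the difference of 7.06 points had an exact permutation p of 0.0857, or 0.114 adjusted. The 20 double cells of eHGT_079h had medians of 827 CPM of Pvalb and 2925 CPM of Sst, against 412 CPM of Pvalb and 3033 CPM of Sst in the 13 double cells of eHGT_064h. Their median number of detected genes was 10099 in eHGT_079h and 9310 in eHGT_064h, beside 9942 and 9758 in the Pvalb cells of the same 2 enhancers. No doublet caller was run and the reads carry no molecular identifiers, so the part that 2 cells in 1 well play in this class was not tested. Among the double cells, Calb1 (calbindin, a calcium-binding protein) reached 10 CPM in 20 of 20 eHGT_079h cells and 11 of 13 eHGT_064h cells. Npy (neuropeptide Y) did so in 20 of 20 eHGT_079h cells and 13 of 13 eHGT_064h cells.

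Cells with neither gene numbered 12 in eHGT_079h (0%, 13.04% and 12.5% of the cells per mouse) and 5 in eHGT_064h (4.26%, 0%, 6.38% and 0%). The adjusted exact permutation p for this class was 0.257. In eHGT_079h, 5 of the 12 had Vip, a peptide that marks another inhibitory family, at 20089 to 68333 CPM, and these came from 2 mice. They were 3.55% of all eHGT_079h cells (exact 95% interval 1.16% to 8.08%, counting error only). Among eHGT_064h cells 0 of 185 had it, and the same interval allows a share of up to 1.97%. Another 2 of the 12 eHGT_079h cells had Lamp5, a marker of a further inhibitory family, at 300 CPM or more, against 0 of 5 in eHGT_064h. Slc17a7, the vesicular glutamate transporter of excitatory neurons, was at 300 CPM or more in 1 neither cell of eHGT_079h and 1 of eHGT_064h.

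**Figure D2:**
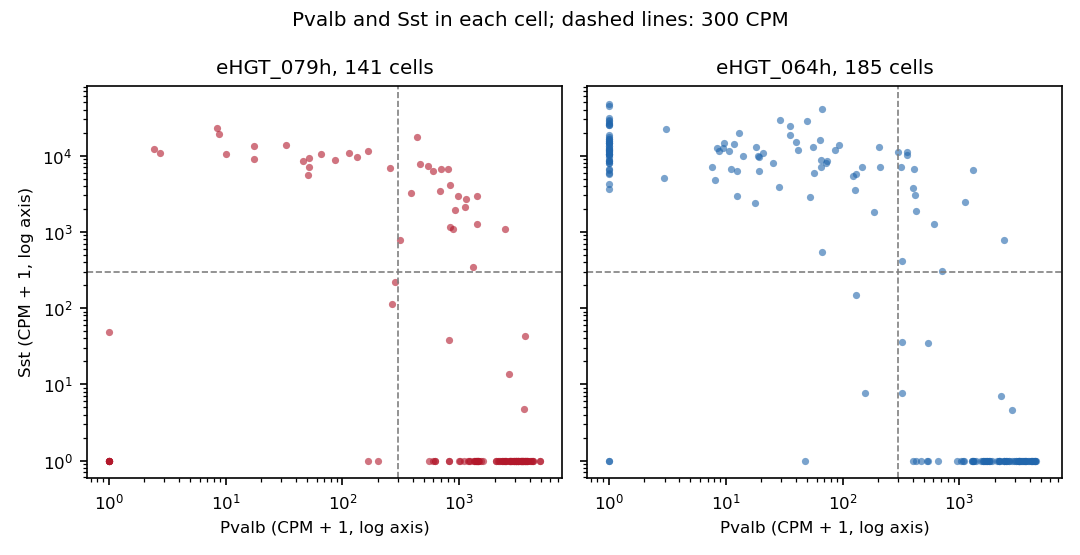
Pvalb (x axis) and Sst (y axis) of every cell in CPM on log scales, for eHGT_079h (left, 141 cells) and eHGT_064h (right, 185 cells), with dotted lines at 300 CPM. The Sst quadrant holds 18 cells of eHGT_079h and 91 cells of eHGT_064h.

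The mean CPM over all cells of a mouse mixes how many cells of each class were sorted with how much RNA of a gene each cell held, and the 2 cannot be told apart in this measure. In it, Pvalb averaged 2311, 1638 and 1533 CPM in eHGT_079h mice, against 676, 1302, 1043 and 1219 CPM in eHGT_064h mice. Sst averaged 1252, 2542 and 2204 CPM in eHGT_079h mice, against 6848, 6644, 5277 and 8313 CPM in eHGT_064h mice. For both genes the mice of the 2 enhancers did not overlap, yet neither passed across genes (limma, log2 difference 0.80 ± 1.34 SE and adjusted p = 0.918 for Pvalb, -1.80 ± 1.83 SE and adjusted p = 0.868 for Sst). The fit takes its spread from the mice of all 11 enhancers. Hpse averaged 7.73, 33.8 and 29.8 CPM in eHGT_079h mice and 16.2, 15.5, 26.4 and 29.5 CPM in eHGT_064h mice, which overlap (limma log2 difference -0.07, adjusted p = 0.988). Spp1 averaged 1.69, 0.108 and 0.383 CPM in eHGT_079h mice and 14.5, 86.8, 15.6 and 0.543 CPM in eHGT_064h mice (log2 difference -3.09, limma adjusted p = 0.167). The 0.543 CPM of MouseID-498750 lies within the eHGT_079h values.

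Across 14219 genes, limma on log2(mean CPM + 1) called 17, or 0.12%, at an adjusted p under 0.05 and a log2 difference of at least 1. Of these, 4 were higher in eHGT_079h (0.0281% of the genes tested) and 13 were lower (0.0914%), beside a median log2 difference of 0.02 over all genes. At an unadjusted p under 0.05 there were 1249 genes (8.78%). Leaving out 1 mouse moved the count to 0 without MouseID-497550, 2 without MouseID-468100, 5 without MouseID-498750 and 19 without MouseID-492045. It was 1 without MouseID-473544, 26 without MouseID-475241 and 4 without MouseID-505189. Voom, a limma fit to read counts recovered from the CPM values, called 0 genes, with 1383 at an unadjusted p under 0.05. No gene was called when neither cells were left out. With equal weight for the Pvalb and Sst classes 3 were called, and 0 of these were among the 17.

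The genes that rose in eHGT_079h included Fstl4, a secreted follistatin-like protein, and Sez6, a membrane protein of dendrites. Fstl4 averaged 44.1, 47.6 and 55.1 CPM in eHGT_079h mice, against 18.7, 11.6, 17.8 and 10.7 CPM in eHGT_064h mice (log2 difference 1.70 ± 0.35 SE, limma adjusted p = 0.0386). Sez6 averaged 35.03, 37.7 and 61.7 CPM in eHGT_079h mice, against 17.3, 15.3, 15.7 and 12.4 CPM in eHGT_064h mice (log2 difference 1.46 ± 0.24 SE, limma adjusted p = 0.0134). The groups did not overlap for either gene, which was true of 16 of the 17 called genes and of 10.4% of all genes tested. The Fstl4 call was lost whichever mouse was left out, and also with a pseudocount of 10 CPM and with no filter. The Sez6 call was lost without MouseID-497550 or MouseID-505189. Among the next genes, Pgbd5, a domesticated transposase, had a log2 difference of 0.80 (limma adjusted p = 0.0264), below the fold limit. Map1a, which binds microtubules, had 0.75 (limma adjusted p = 0.0565), and Dgkz, a diacylglycerol kinase, had 0.76 (limma adjusted p = 0.0888).

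The genes that fell in eHGT_079h were led by Gpx3, a secreted glutathione peroxidase. Gpx3 averaged 5.10, 11.2 and 6.11 CPM in eHGT_079h mice, against 146, 44.98, 97.7 and 44.8 CPM in eHGT_064h mice (log2 difference -3.20 ± 0.57 SE, limma adjusted p = 0.0204). Fxyd7, a modulator of the sodium pump, averaged 2.03, 8.59 and 4.51 CPM in eHGT_079h mice, against 28.1, 27.6, 29.5 and 24.7 CPM in eHGT_064h mice (-2.39 ± 0.46 SE, limma adjusted p = 0.0264). For Gpx3 and Fxyd7 the highest eHGT_079h mouse lay below the lowest eHGT_064h mouse. Syt5, a synaptotagmin of secretory vesicles, averaged 13.2, 51.96 and 69.4 CPM in eHGT_079h mice, against 191, 104, 211 and 159 CPM in eHGT_064h mice (-2.10 ± 0.38 SE, limma adjusted p = 0.0226). Nell1, a secreted protein with thrombospondin-like repeats, averaged 9.18, 30.2 and 11.9 CPM in eHGT_079h mice, against 78.5, 56.3, 55.4 and 69.8 CPM in eHGT_064h mice (-2.03 ± 0.42 SE, limma adjusted p = 0.0418). Gap43, a growth cone protein, averaged 81.5, 124 and 130.3 CPM in eHGT_079h mice, against 317, 232, 351 and 282 CPM in eHGT_064h mice (-1.41 ± 0.30 SE, limma adjusted p = 0.0492). With 1 mouse left out, Nell1 kept its call only without MouseID-475241 and Gap43 only without MouseID-492045. Gpx3, Fxyd7 and Syt5 each lost theirs without MouseID-468100, MouseID-497550 or MouseID-473544. None of these 7 genes was called within G mice or J mice alone, but the log2 differences had the same sign there, for example -3.26 and -3.24 for Gpx3 and 1.11 and 2.07 for Sez6.

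**Figure D3:**
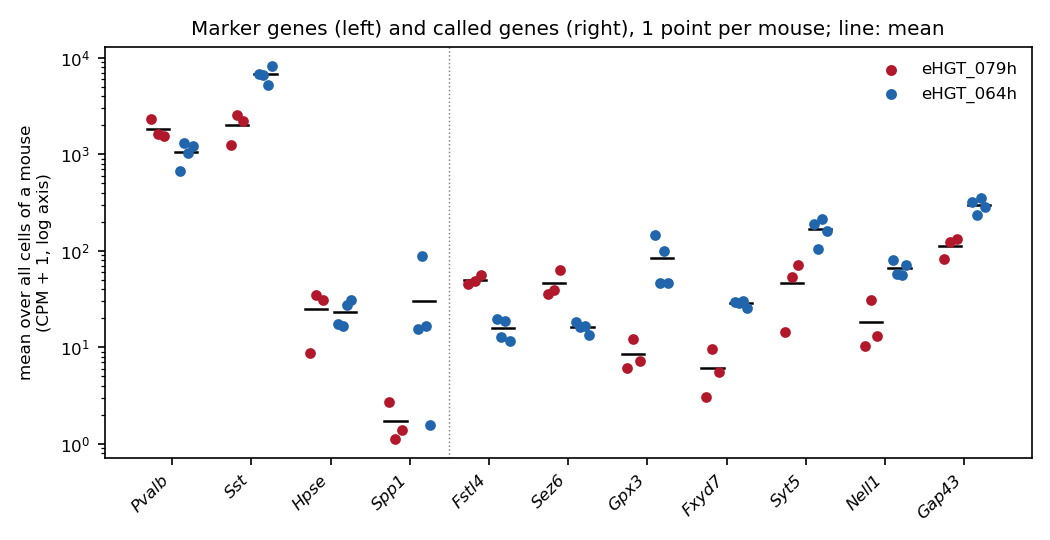
Mean CPM over all cells of a mouse (y axis, log scale after adding 1 CPM), 1 point per mouse, for the 4 markers and the 7 named genes that passed, eHGT_079h left of eHGT_064h. For Gpx3 the 3 eHGT_079h mice lie between 5.10 and 11.2 CPM and the 4 eHGT_064h mice between 44.8 and 146 CPM.

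The called genes also differed between the classes within eHGT_064h. All 13 lower genes had a higher mean in Sst cells than in Pvalb cells in each of the 4 eHGT_064h mice, and 3 of the 4 higher genes had a lower mean in Sst cells in each of them. Gap43, for example, averaged 496 ± 76.4 CPM in Sst cells and 69.3 ± 18.1 CPM in Pvalb cells of eHGT_064h (SD, n = 4 mice). Sez6 averaged 7.04 ± 3.75 CPM in Sst cells and 21.5 ± 3.71 CPM in Pvalb cells there (SD, n = 4 mice). The share of all tested genes with this pattern was not computed, and the same eHGT_064h mice entered the calls. The part of the class shares in these differences was not tested as such. The fits within each class, given further on, are the same measure with the class held fixed.

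Channels of fast-spiking cells showed positive differences that did not pass over all cells. Of 15 such genes, 0 were called in either direction, 15 of 15 had a positive log2 difference, and their median was 0.71 beside 0.02 over all genes. Kcnc1, a Kv3 potassium channel that repolarises fast spikes, averaged 618, 466 and 681 CPM in eHGT_079h mice, against 289, 442, 340.3 and 296 CPM in eHGT_064h mice (log2 difference 0.79, limma adjusted p = 0.499). Kcna1, a Kv1 channel of axons, had a difference of 0.82 (limma adjusted p = 0.333), and Hcn2, a channel opened by hyperpolarisation, 0.79 (limma adjusted p = 0.393). Of the 7 perineuronal net genes tested, 0 were called and 7 were positive, with a median of 0.68. Hapln4, a link protein of the net, had 0.94 (limma adjusted p = 0.363), and Bcan (brevican, a core proteoglycan) had 0.95 (limma adjusted p = 0.72).

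Genes that mark Sst subtypes gave 0 calls of 23 over all cells, with a median of -0.15. Nos1 (neuronal nitric oxide synthase) averaged 1.83, 4.64 and 6.19 CPM in eHGT_079h mice, against 24.7, 14.6, 48.1 and 32.9 CPM in eHGT_064h mice (log2 difference -2.56, limma adjusted p = 0.129). Calb2 had -3.16 (limma adjusted p = 0.548) and Reln, the secreted protein reelin, -1.50 (limma adjusted p = 0.331). Over all genes tested, 0.12% were called and 0.0914% were called lower. Of 14 Pvalb subtype genes 1 was called lower, and of 25 receptor subunits for GABA and glutamate 1 was called lower. In both lists it was Gabrg1, a GABA-A receptor subunit, named after its values were seen: 0, 0.0297 and 0.0293 CPM in eHGT_079h mice, against 3.28, 1.40, 11.4 and 10.5 CPM in eHGT_064h mice. Its call was lost within G mice, within J mice, and without each mouse in turn except MouseID-492045. Of 18 secreted factors and matrix enzymes 1 was called, the higher Fstl4. The other 9 lists had no call: transcription factors of the medial ganglionic eminence (0 of 17), neuropeptides (0 of 12), neuropeptide receptors (0 of 17), calcium-binding proteins (0 of 12), synaptic adhesion and release (0 of 19), respiratory chain (0 of 15), immediate early genes (0 of 12), interferon response (0 of 4) and stress response (0 of 10).

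Pvalb cells sorted with the 2 enhancers showed no gene past the threshold. The fit held all 3 eHGT_079h mice (37, 27 and 27 Pvalb cells) and all 4 eHGT_064h mice (16, 20, 19 and 21 cells). Of 13838 genes, limma called 0, or 0%, the smallest adjusted p was 0.908, and 633 genes (4.57%) had an unadjusted p under 0.05. Voom also called 0 genes, with 866 at an unadjusted p under 0.05. Without MouseID-492045 of eHGT_064h, 2 genes were called, and these were Csrnp2 (limma adjusted p = 0.0135) and Hmgxb3 (limma adjusted p = 0.0368). Csrnp2, a nuclear protein, had 33.1, 42.2 and 34.7 CPM in Pvalb cells of eHGT_079h mice, against 12.3, 27.1, 13.6 and 13.5 CPM in eHGT_064h mice, where 27.1 is MouseID-492045 (log2 difference 1.16 over all 7 mice, limma adjusted p = 0.908). Hmgxb3 had 19.8, 26.03 and 16.9 CPM in eHGT_079h mice, against 7.27, 13.97, 1.15 and 4.33 CPM in eHGT_064h mice, a log2 difference of 1.81 (limma adjusted p = 0.908). Neither gene's groups overlapped, as in 5.92% of the genes tested.

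The other genes with the smallest p in Pvalb cells are given as values only. Galnt9, a glycosyltransferase, had 95.3, 87.7 and 126 CPM in eHGT_079h mice, against 55.1, 52.3, 55.8 and 59.3 CPM in eHGT_064h mice (log2 difference 0.86). Psat1, an enzyme of serine synthesis, had 52.5, 91.9 and 65.5 CPM in eHGT_079h mice, against 152, 98.1, 166 and 129 CPM in eHGT_064h mice (-0.96). Cd63, a tetraspanin of vesicles, had 16.99, 42.1 and 17.1 CPM in eHGT_079h mice, against 59.00, 51.2, 49.2 and 70.3 CPM in eHGT_064h mice (-1.26). Stk32c, a kinase, had a log2 difference of -0.82. Each of these 4 genes had a limma adjusted p of 0.908, and none overlapped between the enhancers.

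Within Pvalb cells the channel genes of fast spiking had a median log2 difference of 0.36, against 0.71 over all cells. Of 15, 0 passed and 14 were positive, beside a median of 0.02 over all genes in this fit. Kcna1 had 0.46 (limma adjusted p = 0.996) and Kcnc1 had 0.38 (limma adjusted p = 0.999). The 8 perineuronal net genes had 0 calls and a median of 0.41. Tac1, the precursor of substance P and a marker of some Pvalb subtypes, had 495, 779 and 510.1 CPM in Pvalb cells of eHGT_079h mice, against 1069, 717, 979.98 and 825 CPM in eHGT_064h mice (log2 difference -0.61, limma adjusted p = 0.999). It reached 10 CPM in 52 of 91 Pvalb cells of eHGT_079h and in 58 of 76 of eHGT_064h, 58.2% against 76.8% as means over mice (exact permutation p = 0.0857, not passed after adjustment over 24 pairs of class and gene). Fstl4, higher over all cells, had 51.8, 38.2 and 61.2 CPM in Pvalb cells of eHGT_079h mice, against 17.9, 21.6, 22.1 and 20.2 CPM in eHGT_064h mice, without overlap (log2 difference 1.24, limma adjusted p = 0.973). All 15 lists had 0 calls in Pvalb cells. Hpse reached 10 CPM in 0 of 91 Pvalb cells of eHGT_079h and 0 of 76 of eHGT_064h.

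In Sst cells, the peptide precursors Tac1 and Cartpt and the transcription factor Nr2f2 were listed at 0 in eHGT_079h, while Drd1, Cds1 and Kcna1 were higher. These cells were few in eHGT_079h: 4, 9 and 5 cells in its 3 mice, against 24, 20, 22 and 25 in the eHGT_064h mice. MouseID-473544, with 4 cells, fell below the minimum of 5 cells and is not in the fit, so 2 mice stand against 4. Its values are given first in each sentence on eHGT_079h Sst cells. Of 13616 genes, limma called 50, or 0.367%, with 4 higher in eHGT_079h (0.0294%) and 46 lower (0.338%). The median log2 difference over all genes was -0.05, and 1567 genes (11.5%) had an unadjusted p under 0.05. A gene had to reach 1 CPM in 3 mice to be tested, so one found only in the 2 eHGT_079h mice could not enter. Without this filter 7 genes were higher and 24 lower. With the mean over cells of log2(CPM + 1), 19 were higher and 2 lower.

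The count moved with single mice. It was 25 without MouseID-468100, 28 without MouseID-497550 and 30 with MouseID-473544 in the fit. Leaving out MouseID-475241 or MouseID-505189 left 1 eHGT_079h mouse in the fit. Voom called 0 genes, with 1196 at an unadjusted p under 0.05. Of the 13 called genes named below, 7 lost their call without MouseID-505189 (Drd1, Cds1, Kcna1, Gpx3, Nnat, Oprm1 and Hpca), and 4 without MouseID-468100 (Drd1, Kcna1, St6galnac5 and Oprm1). St6galnac5 and Oprm1 also lost it without MouseID-475241, Kcna1 and Oprm1 without MouseID-497550, and Oprm1 without MouseID-492045. With MouseID-473544 in the fit, 7 of the 13 lost their call (Drd1, Cds1, Tac1, Ptprt, Nr2f2, Crhr2 and Oprm1). A class threshold of 1000 CPM lost 8, no filter lost 7, a pseudocount of 10 CPM lost 4 and the mean of log2 values lost 11. A class threshold of 100 CPM, with 1 eHGT_079h mouse in the fit, lost Drd1, Kcna1, Tac1, Gpx3 and Hpca. Median detected genes per Sst cell were 9539.5 in eHGT_079h and 9324 in eHGT_064h.

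The higher genes in eHGT_079h Sst cells were Drd1, Cds1 and Kcna1. Drd1, the dopamine D1 receptor, had 5.57, 29.5 and 30.4 CPM in eHGT_079h mice, against 2.45, 3.59, 5.47 and 5.47 CPM in eHGT_064h mice (log2 difference 2.61 ± 0.45 SE, limma adjusted p = 0.0145). The mouse with 4 cells lay near the eHGT_064h values for Drd1, which reached 10 CPM in 8 of 18 eHGT_079h cells and 11 of 91 eHGT_064h cells. Cds1, an enzyme of phospholipid synthesis, had 97.5, 186 and 212 CPM in eHGT_079h mice, against 69.8, 71.4, 85.4 and 70.7 CPM in eHGT_064h mice (1.41 ± 0.23 SE, limma adjusted p = 0.0118). Kcna1 had 190.3, 187 and 289 CPM in eHGT_079h mice, against 91.1, 109, 91.1 and 108 CPM in eHGT_064h mice (1.22 ± 0.21 SE, limma adjusted p = 0.0158). For Cds1 and Kcna1, the mouse with 4 cells also lay above all 4 eHGT_064h mice.

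Several lower genes mark subsets of Sst cells in eHGT_064h and were listed at 0 in all 3 eHGT_079h mice. Of the 46 lower genes, 8 were at 0 in both fitted mice. Tac1 was at 0 in all 3, against 133, 81.6, 351 and 168 CPM in eHGT_064h mice (limma adjusted p = 0.0111). The mean of the eHGT_064h mice was 793 times a floor of 3 reads over the eHGT_079h group. Cartpt, the precursor of CART peptide, was at 0 against 42.2, 10.4, 113 and 38.6 CPM in eHGT_064h mice, 221 times the floor (limma adjusted p = 0.00897). Nr2f2 (COUP-TFII), a transcription factor, was at 0 against 46.9, 26.3, 22.03 and 8.92 CPM, 113 times the floor (limma adjusted p = 0.00847). Crhr2, a receptor for corticotropin-releasing peptides, named after its values were seen, was at 0 against 20.7, 13.7, 5.24 and 17.2 CPM, 61.5 times the floor (limma adjusted p = 0.00897). These multiples count reads and not cells, so they set no lower limit on the fold difference between the enhancers. Tac1 reached 10 CPM in 9 of 91 eHGT_064h Sst cells. Tac1, Nr2f2 and Crhr2 were no longer called with MouseID-473544 in the fit, although they were at 0 in it too. Tac1 was also lost with no filter and at class thresholds of 100 CPM (1 eHGT_079h mouse in the fit) and 1000 CPM. Cartpt and Crhr2 were lost at 1000 CPM too. Cartpt, Nr2f2 and Crhr2 lost their calls with a pseudocount of 10 CPM. Each of Tac1, Cartpt, Nr2f2 and Crhr2 was lost with the mean of log2 values and with voom.

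The share of cells with each gene shows how much these zeros can say. A count of 0 in 18 cells allows a share of up to 18.5% (exact 95% interval), a limit that pools the cells of 3 mice and covers counting error only. Nr2f2 reached 10 CPM in 9 of 24, 5 of 20, 6 of 22 and 2 of 25 Sst cells of the eHGT_064h mice, and Cartpt in 8 of 24, 6 of 20, 5 of 22 and 1 of 25. For both genes the share was above the limit in 3 eHGT_064h mice and below it in MouseID-498750. Over the 91 eHGT_064h Sst cells, Crhr2 reached 10 CPM in 17.6%, Myh8 (a myosin heavy chain, at 0 of 18 in eHGT_079h) in 13.2% and Tac1 in 9.89%, which lie below the limit. For Crhr2, Myh8 and Tac1 a lower share of cells in eHGT_079h was therefore not detectable at this number of cells.

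Other lower genes were nearly absent in eHGT_079h Sst cells. Ptprt, a receptor tyrosine phosphatase of synapses, had 0, 0.176 and 8.42 CPM in eHGT_079h mice, against 111, 118, 76.1 and 77.1 CPM in eHGT_064h mice (-4.83 ± 0.61 SE, limma adjusted p = 0.00458). It reached 10 CPM in 1 of 18 eHGT_079h cells and 47 of 91 eHGT_064h cells. Gpx3 had 0, 9.04 and 0 CPM in eHGT_079h mice, against 267, 94.4, 176 and 68.9 CPM in eHGT_064h mice (-5.39, limma adjusted p = 0.0111), and reached 10 CPM in 2 of 18 eHGT_079h cells and 41 of 91 eHGT_064h cells. St6galnac5, a sialyltransferase, had 0, 0 and 0.312 CPM in eHGT_079h mice, against 74.5, 54.2, 59.5 and 31.2 CPM in eHGT_064h mice (-5.54, limma adjusted p = 0.0118), in 0 of 18 and 36 of 91 cells. Nnat (neuronatin, a small membrane protein) had 0, 1.53 and 0 CPM in eHGT_079h mice, against 36.7, 29.05, 60.5 and 76.9 CPM in eHGT_064h mice (-4.92, limma adjusted p = 0.0118), in 1 of 18 and 35 of 91 cells. No mouse of either enhancer overlapped the other for these 4 genes, as for the fitted mice in all 50 called genes and in 21.5% of all genes tested.

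Receptors and calcium sensors gave calls with a smaller difference. Oprm1, the mu opioid receptor, had 3.14, 20.8 and 23.7 CPM in eHGT_079h mice, against 93.4, 93.1, 75.3 and 53.01 CPM in eHGT_064h mice (-1.75, limma adjusted p = 0.0166). Hpca (hippocalcin, a calcium sensor) had 31.7, 48.9 and 22.6 CPM in eHGT_079h mice, against 132, 127, 118 and 119.6 CPM in eHGT_064h mice (-1.87, limma adjusted p = 0.0118). For both genes all 3 eHGT_079h mice lay below all 4 eHGT_064h mice. Gpx3, Fxyd7 and Syt5 were called over all cells and in Sst cells, lower in eHGT_079h in both.

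**Figure D4:**
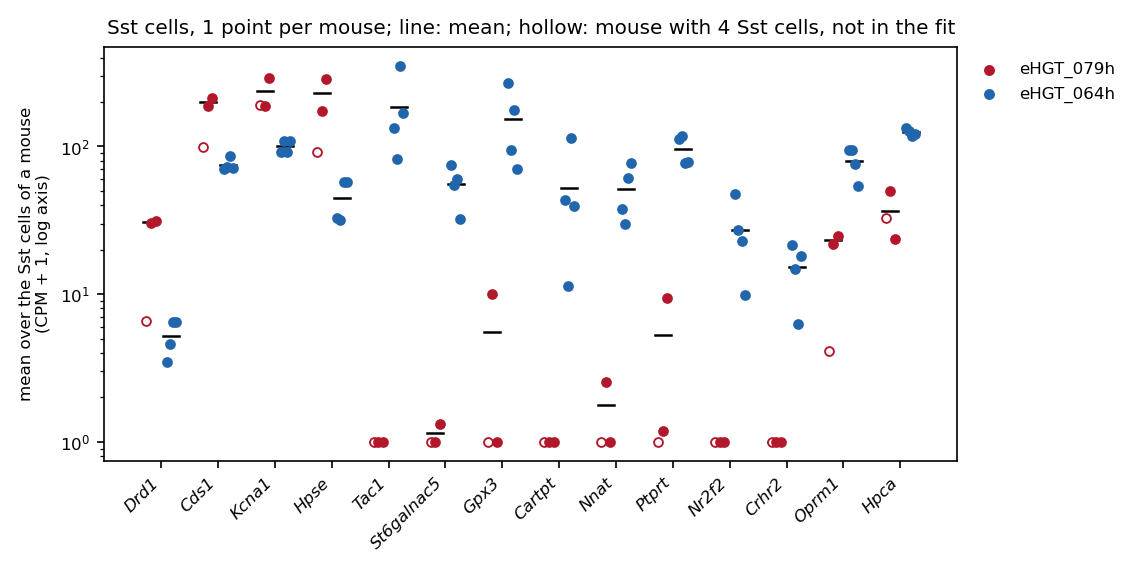
Mean CPM in Sst cells of a mouse (y axis, log scale after adding 1 CPM), eHGT_079h left of eHGT_064h, with a hollow point for the eHGT_079h mouse with 4 Sst cells, which is not in the fit. Tac1, Cartpt, Nr2f2 and Crhr2 lie at 0 in all 3 eHGT_079h mice, while Hpse lies at 90.4 to 286 CPM in eHGT_079h and 30.99 to 56.7 CPM in eHGT_064h.

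Hpse, a marker of an Sst subtype, was higher in every eHGT_079h mouse than in any eHGT_064h mouse but did not pass across genes. It had 90.4, 173 and 286 CPM in Sst cells of eHGT_079h mice, against 31.8, 30.99, 56.4 and 56.7 CPM in eHGT_064h mice (log2 difference 2.37 ± 0.58 SE, limma adjusted p = 0.0938). It reached 10 CPM in 3 of 4, 6 of 9 and 4 of 5 Sst cells of the eHGT_079h mice, against 6 of 24, 5 of 20, 7 of 22 and 10 of 25 of the eHGT_064h mice. In all, that is 72.2% of 18 eHGT_079h cells (exact 95% interval 46.5% to 90.3%) and 30.8% of 91 eHGT_064h cells (21.5% to 41.3%). Over mice with at least 5 Sst cells the shares were 73.3% ± 9.43 (SD, n = 2) in eHGT_079h and 30.5% ± 7.13 (SD, n = 4) in eHGT_064h, with an exact permutation p of 0.0667, the smallest that 2 mice against 4 can give. Of 24 pairs of class and marker gene, 0 passed and 0 had an unadjusted p under 0.05. Among the 6 enhancers with at least 9 Sst cells, Hpse reached 10 CPM in 22 of 68 for eHGT_017h, 7 of 28 for eHGT_023h, 4 of 9 for eHGT_058h and 7 of 32 for hDLXI56i.

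Hpse and Calb2 were counted together in each Sst cell, and the overlap that independent genes would give was not computed. Of 18 eHGT_079h Sst cells, 12 had only Hpse at 10 CPM or more, 4 only Calb2, 1 both and 1 none. Of 91 eHGT_064h Sst cells, 21 had only Hpse, 27 only Calb2, 7 both and 36 none. Calb2 was found in 27.8% of eHGT_079h Sst cells (exact 95% interval 9.69% to 53.5%) and 37.4% of eHGT_064h Sst cells (27.4% to 48.1%). Reln reached 10 CPM in 18 of 18 eHGT_079h cells and 73 of 91 eHGT_064h cells. Pdyn, the precursor of dynorphin, did so in 17 of 18 eHGT_079h cells and 62 of 91 eHGT_064h cells. Npy did so in 18 of 18 eHGT_079h cells and 86 of 91 eHGT_064h cells. Spp1 reached 10 CPM in 0 of 18 eHGT_079h Sst cells and 5 of 91 eHGT_064h Sst cells, and its mean was 0 in each eHGT_079h mouse, against 28.4, 187, 3.43 and 0.179 CPM in eHGT_064h mice (limma adjusted p = 0.322).

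Over all genes tested in Sst cells, 0.367% were called and 0.338% were called lower. Among the lists, Sst subtype genes gave 2 calls of 21, both lower (Nr2f2 and Crhr2, each lost with MouseID-473544 in the fit). Their median log2 difference was -1.41, or -1.92 with the 6 genes at 0 in eHGT_079h set at a floor of 3 reads. Genes at 0 in eHGT_079h, such as Nr2f2, Crhr2 and Tac1, entered the fit through eHGT_064h mice alone. A gene found only in the fitted eHGT_079h mice could not enter, so the filter favours lower values. The list medians and these calls are descriptions only. Examples that did not pass are Crh (corticotropin-releasing hormone), with 0, 0.306 and 0 CPM in eHGT_079h mice against 108, 66.96, 1.61 and 116 CPM in eHGT_064h mice (limma adjusted p = 0.236), and Necab1, a calcium-binding protein (-3.63, limma adjusted p = 0.073). Neuropeptide receptors gave 2 lower calls of 14 (Oprm1 and Crhr2), with a median of -0.89. Neuropeptides gave 1 lower call of 10 (Tac1), with a median of -0.10. Pvalb subtype genes gave 1 lower call of 9 (also Tac1), with a median of -0.93, and calcium-binding proteins 1 lower call of 11 (Hpca), with a median of -0.21. Fast-spiking channel genes gave 1 higher call of 14, Kcna1, with a median of 0.60 beside -0.05 over all genes. Hcn2 had a log2 difference of 1.25 (limma adjusted p = 0.214) and Scn8a, a sodium channel, 0.86 (limma adjusted p = 0.192).

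Of the remaining lists in Sst cells, none had a call. Gabrd, the delta subunit of extrasynaptic GABA-A receptors, had 170.4, 214 and 274 CPM in eHGT_079h mice, against 31.4, 56.4, 84.4 and 102 CPM in eHGT_064h mice (1.94, limma adjusted p = 0.0695), and its list had 0 of 25. Ifit1, an interferon-induced gene, had 88.8, 156 and 90.7 CPM in eHGT_079h mice, against 29.7, 27.4, 24.9 and 47.8 CPM in eHGT_064h mice (1.89, limma adjusted p = 0.0795), in a list with 0 of 4. Immediate early genes, which follow recent activity, had 0 of 12 and a median of -1.02. Secreted factors had 0 of 16 and a median of -0.71. Perineuronal net (0 of 6), transcription factors (0 of 17), synaptic adhesion and release (0 of 17), respiratory chain (0 of 15) and stress response (0 of 9) had medians between -0.11 and 0.17.

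**Figure D5:**
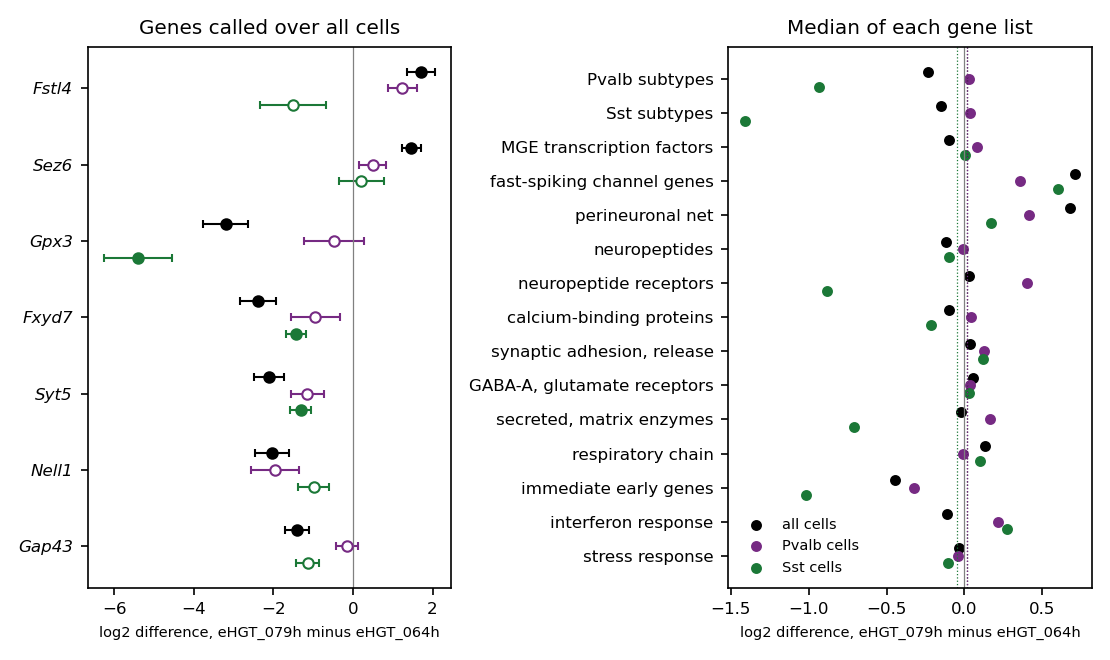
Left, log2 difference (eHGT_079h minus eHGT_064h) ± SE of the 7 named genes called over all cells, in all cells (black), Pvalb cells (purple) and Sst cells (green), filled where called; right, median log2 difference of 15 gene lists in the same 3 fits, with dotted lines at the medians of all genes. Fast-spiking channel genes have medians of 0.71, 0.36 and 0.60, and Sst subtype genes of -0.15, 0.04 and -1.41.

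Whether a difference in Sst cells departed from that in Pvalb cells was tested within mice, as Sst minus Pvalb cells of the same mouse, in 2 eHGT_079h and 4 eHGT_064h mice. Of 14471 genes, limma called 1, or 0.00691%, beside 996 (6.88%) at an unadjusted p under 0.05. It was Akap13, an anchoring protein for protein kinase A, named after its values were seen. Akap13 averaged 0.156 CPM in Sst cells and 5.39 CPM in Pvalb cells of eHGT_079h, against 7.65 CPM in Sst cells and 1.49 CPM in Pvalb cells of eHGT_064h (difference of differences -4.30 ± 0.33 SE, limma adjusted p = 0.0166). Tac1 averaged 0 CPM in Sst cells and 645 CPM in Pvalb cells of eHGT_079h, against 183 CPM in Sst cells and 898 CPM in Pvalb cells of eHGT_064h, and did not pass (limma adjusted p = 0.0765). St6galnac5 had a difference of -5.53 and Il1rapl2, a synaptic adhesion protein, of -4.38, each with a limma adjusted p of 0.1002. The groups did not overlap in this measure for 20.3% of the genes tested. The Akap13 call was kept without MouseID-498750 and lost without MouseID-468100, MouseID-492045 or MouseID-497550. With 1 mouse left out, its differences of differences were -4.61 to -3.99. The call was also lost with a pseudocount of 10 CPM, with the letter as a covariate, at a class threshold of 1000 CPM and with MouseID-473544 in the fit. Akap13 was not called either at a class threshold of 100 CPM or without MouseID-475241 or MouseID-505189. Those fits held 1 eHGT_079h mouse. The count was 0 to 3 when 1 mouse was left out, with 3 genes called without MouseID-498750.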

How the data were processed

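The deposited table holds CPM per gene and cell (45768 genes, of which 9567 are 0 in every cell). Per the submitters' processing notes, the authors used STAR and mm10; the counting settings are not stated there. The read total of each cell was inferred from its smallest nonzero CPM, as a total that made its values whole reads within 0.01. This held for 100% of values, which that choice favours, so it is no separate check of the totals. The reads carry no molecular identifiers, so PCR copies count as reads, and full-length cDNA from poly(A) RNA favours long transcripts. Labels deposited by the authors gave the enhancer and the mouse of each cell.

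The mouse was the replicate. CPM were averaged over the cells of a mouse, log2(mean + 1 CPM) was taken, and limma 3.58.1 (trend, robust; R 4.3.3) was fitted to the mice of all 11 enhancers, with genes at 1 CPM or more in at least 3 mice of the 2 enhancers. The class fits used mice with at least 5 cells of the class. Fold changes are on the log2(CPM + 1) scale, which understates those of low genes. Shares were compared with 2-sided exact permutation tests over mice. The labels do not say whether mice share a litter or an injection day, so p-values measure only the spread between mice. Named genes were called genes averaging at least 20 CPM without overlap, up to 10 per direction over all cells and 6 within a class, or else the 3 of smallest p, plus Pvalb, Sst, Hpse, Spp1 and up to 4 examples from a gene list. The 15 gene lists, like the cells and the tests, were chosen with earlier results of these data known. The fits were also run on simulated counts, with the same dispersion for every gene and no difference in class shares between mice. That run cannot show how the fits behave on the real class mixtures or on few Sst cells. Alternatives covered the pseudocount, the filter, the class threshold, prefix letters, the averaging and each mouse left out. Voom, leaving out neither cells and J mice alone were added after seeing the data, and a planned count test was not run, with voom on the recovered reads in its place. Some members of the lists are counted but not reported here by name.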

Additional observations from a re-analysis of the deposited data

Results flagged for a closer look

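In Pvalb cells, the Csrnp2 value of 27.1 CPM in MouseID-492045 stood far from the other 3 eHGT_064h mice, which had 12.3 to 13.6 CPM. In Sst cells, Cds1 at 85.4 CPM in MouseID-497550 stood apart from 69.8 to 71.4 CPM in the other eHGT_064h mice. Spp1 in Sst cells at 187 CPM in MouseID-492045 stood apart from 0.179 to 28.4 CPM in the other eHGT_064h mice. In all, 3 of 41 groups of 4 mice examined had such a value, and chance flags about 1 in 20 groups. Akap13 differed between the enhancers in a different way in Sst and Pvalb cells, with a difference of differences of -4.30 on the log2 scale (limma adjusted p = 0.0166, 2 eHGT_079h and 4 eHGT_064h mice). That call was kept without MouseID-498750 and lost in every other alternative run. These include a pseudocount of 10 CPM, the letter as a covariate, a class threshold of 1000 CPM and MouseID-473544 in the fit.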

How the results depend on the processing

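No paired analysis was possible because the mice of the 2 enhancers share no replicate number. The class shares kept their direction in every alternative run. With 1 mouse left out, the difference between eHGT_079h and eHGT_064h was 16.3 to 27.5 percentage points for Pvalb cells, -39.7 to -34.1 for Sst cells, 3.69 to 9.76 for double cells and 3.59 to 10.1 for neither cells. Over all cells, beside 17 calls, there were 7 with a pseudocount of 10 CPM, 7 with no filter, 9 with genes at 10 CPM or more and 26 with the 2 enhancers alone. The mean of log2 values gave 9 and equal class weight gave 3, and 0 of the 17 were among them in either setting. There were 0 in G mice, 0 with voom, 0 without neither cells, and 0 to 26 with 1 mouse left out. In Sst cells, beside 50, there were 114 with a pseudocount of 0.1 CPM, 31 with 10 CPM, 31 with no filter, 76 with the 2 enhancers alone, 21 with the mean of log2 values, 0 with voom, 118 at a class threshold of 100 CPM, 30 with mice of at least 3 cells, and 25 to 130 with 1 mouse left out. Pvalb cells had 0 to 2 with 1 mouse left out. The difference of differences had 0 with 10 CPM, 0 with the letter as a covariate and 0 to 3 with 1 eHGT_064h mouse left out. It had 1 at a class threshold of 1000 CPM and 4 with at least 3 cells, and Akap13 was not among these. Of the values of named genes under alternatives, 16 changed sign, none of them a call. Hpse over all cells, at -0.07, was 0.00328 with 10 CPM, 0.00301 with the letter as a covariate, 0.0498 in G mice, 0.0904 in J mice, 0.0232 without neither cells, 1.92 with equal class weight, and -0.43 to 0.57 with 1 mouse left out. Equal class weight gave 0.26 for Reln, -0.30 for Vip and 0.10 for Elfn1, a synaptic adhesion protein. Fos in Pvalb cells was 1.09 in J mice and -1.30 to 0.10 with 1 mouse left out, and Penk in Sst cells was 0.34 with the mean of log2 values. The causes were not tested. The 2 or 3 eHGT_079h mice with few Sst cells limit every Sst value.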
